A study of Rattus norvegicus with 4 samples.

Results

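The miR-183/miR-96/miR-182 cluster is a group of 3 neighbouring miRNA genes, Mir183, Mir96 and Mir182, whose products were followed here in small RNA libraries from rat exosomes. Its members were chosen by name: every read sequence (tag) that the deposited files place on the hairpins rno-mir-183, rno-mir-96 or rno-mir-182 was taken, and its counts were summed by hairpin, arm, length, start and alignment. These are 3 of the 302 named rat hairpins with a count in at least 1 library, and they gave 3 mature forms with counts, miR-183-5p, miR-182 and miR-96-5p, of 348 in all. Hairpins of the cluster were found as 2 of 147 named hairpins in Exo-AT replicate 1, 2 of 226 in Exo-AT replicate 2 and 3 of 250 in Exo-ADSCs replicate 2.

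Exosomes are small membrane vesicles released by cells, and the series compared those of adipose tissue with those of the stem cells of that tissue. Exo-AT are exosomes of minced adipose tissue from Sprague-Dawley rats aged 4 weeks, kept as explants in a stirred flask for 3 days, so that every cell type of the tissue could contribute vesicles. Exo-ADSCs are exosomes of adipose derived stem cells at passage 3, which spent 3 days in medium without serum. No treatment, genetic change, sex or number of animals is given by the labels, which list 2 libraries per group. Tag counts were used for both Exo-AT libraries and for Exo-ADSCs replicate 2; the file used for Exo-ADSCs replicate 1 is a summary that names no miRNA, so the Exo-ADSCs group is 1 library below.

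The genes of the cluster lie close together on the same strand and are known in mammals to be made from a shared primary transcript. The seed, bases 2 to 8 of the mature miRNA, is the main contact with target mRNAs, and the members have related seeds. The cluster is known for its high level in sensory organs, among them photoreceptors and the hair cells of the inner ear, where changes in the seed of miR-96 cause hearing loss in humans and mice. It is also raised in many human carcinomas, and miR-96 and miR-182 are known to repress the transcription factor FOXO1 in human breast cancer cells.

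RefSeq (assembly GRCr8) places the cluster on the minus strand of chromosome 4. Mir183 lies at chr4:59756044-59756153, Mir96 at chr4:59755841-59755946 and Mir182 at chr4:59752246-59752307, a span of 3908 bases with 97 bases between Mir183 and Mir96 and 3533 between Mir96 and Mir182. RefSeq lists 0 protein-coding genes that contain the cluster, and the nearest on either side are Nrf1 and Ube2h. The 3 RefSeq hairpins are identical to those in the deposited files. The mature sequences from RefSeq are shown because all results below are counts of these molecules and their variants; capitals mark the seed.
rno-miR-183-5p: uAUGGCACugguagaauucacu
rno-miR-96-5p: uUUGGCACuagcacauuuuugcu
rno-miR-182: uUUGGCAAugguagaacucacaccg
rno-miR-183-3p: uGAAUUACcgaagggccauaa
rno-miR-96-3p: cAAUCAUGugcagugccaauau

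Each of the 3 main mature forms has a seed of its own. Counting from 1 at the 5′ end of the mature miRNA, the seed of miR-96-5p differs from that of miR-183-5p by A2U, that of miR-182 differs from that of miR-183-5p by A2U and C8A, and that of miR-182 differs from that of miR-96-5p by C8A. Over the whole mature sequence, miR-183-5p and miR-182 are the closest pair. Read from the 5′ end without gaps, they are identical at 18 of 22 positions, while miR-183-5p and miR-96-5p are identical at 13 of 22, and miR-96-5p and miR-182 at 12 of 23. RefSeq gives 1 mature form for Mir182 and none for the opposite arm. The hairpin it gives for Mir182 is short, 62 bases against 110 for Mir183 and 106 for Mir96, and the mature form, in capitals here, fills bases 35 to 59.
rno-mir-182 hairpin: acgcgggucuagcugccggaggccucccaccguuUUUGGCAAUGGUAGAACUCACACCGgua

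The 3 libraries differ widely in depth and make-up. Counts assigned to any hairpin, including those the authors predicted themselves, were 15200 and 181049 in Exo-AT replicates 1 and 2, against 715114 in Exo-ADSCs replicate 2. Counts on named rat hairpins were 9134 and 136024 in Exo-AT, against 97204 in the Exo-ADSCs library, which is 60.1% and 75.1% of the assigned counts in Exo-AT, against 13.6% in the Exo-ADSCs library. No tag has under 2 reads in these files. Levels are in CPM, counts scaled to the library's counts on named hairpins unless stated. Where a form has 0 counts, a level of up to 3 counts cannot be told from 0. That limit was 328 and 22.1 CPM in the Exo-AT libraries and 30.9 CPM in the Exo-ADSCs library. It is the least the limit can be, since a form spread over several tags of under 2 reads would also show 0. Both Exo-AT files carry the same sample name inside, and no label says whether replicates are separate animals or cultures. The p-values therefore reflect only how far these libraries differ, which may be technical.

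miR-183-5p was the most abundant or joint most abundant member in each library. It had 2 and 115 counts in Exo-AT replicates 1 and 2, against 201 counts in Exo-ADSCs replicate 2. That is 219 CPM (Wilson 95% interval 60.0 to 798) and 845 CPM (704 to 1015) in Exo-AT, against 2068 CPM (1801 to 2374) in the Exo-ADSCs library. The Exo-ADSCs library was above both Exo-AT libraries, and its interval overlaps neither of theirs. The shallow Exo-AT library rests on a single tag of 2 reads, the fewest a tag has in these files. The interval of that library does not allow for tags of under 2 reads, so its upper bound may be too low. In such bulk samples, fewer vesicles from a cell type and less of a miRNA per vesicle cannot be told apart. By level, miR-183-5p ranked 115 of 140 mature forms with counts in Exo-AT replicate 1, where 22 forms tie at 2 counts, 64 of 244 in Exo-AT replicate 2 and 26 of 264 in Exo-ADSCs replicate 2.

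miR-182 was the next member. It had 2 and 109 counts in Exo-AT, against 138 counts in the Exo-ADSCs library. These are 219 CPM (60.0 to 798) and 801 CPM (664 to 966) in Exo-AT, against 1420 CPM (1202 to 1677) in the Exo-ADSCs library. Again both Exo-AT libraries were below the Exo-ADSCs library, and neither of their intervals reaches that of Exo-ADSCs. The intervals of the 2 Exo-AT libraries overlap. The upper bound of Exo-AT replicate 1, again from 1 tag, may be too low here as well. miR-182 ranked 115 of 140 forms in Exo-AT replicate 1, 66 of 244 in Exo-AT replicate 2 and 38 of 264 in Exo-ADSCs replicate 2.

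miR-96-5p, the member whose seed changes are tied to deafness, was at or near the limit of these libraries. It had 0 counts in both Exo-AT libraries, against 4 counts in the Exo-ADSCs library, all from 1 tag, or 41.2 CPM (16.0 to 106), rank 195 of 264. In Exo-AT limits of at least 328 and 22.1 CPM apply, so a level like that of Exo-ADSCs would not have been seen in Exo-AT replicate 1. The opposite-arm products miR-183-3p and miR-96-3p had 0 counts in all 3 libraries. Together the cluster had 4 and 224 counts in Exo-AT, 0.0438% and 0.165% of the counts on named hairpins, against 343 counts in the Exo-ADSCs library, 0.353%.

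The order of the groups depended on what the counts were set against. As CPM of all assigned counts, predicted hairpins included, miR-183-5p was at 132 and 635 in Exo-AT, against 281 in the Exo-ADSCs library. On the same scale miR-182 was at 132 and 602 in Exo-AT, against 193 in the Exo-ADSCs library, and miR-96-5p at 5.59 in Exo-ADSCs. With this denominator the Exo-ADSCs library lies between the 2 Exo-AT libraries for both miR-183-5p and miR-182, and the groups overlap.

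**Figure D1:**
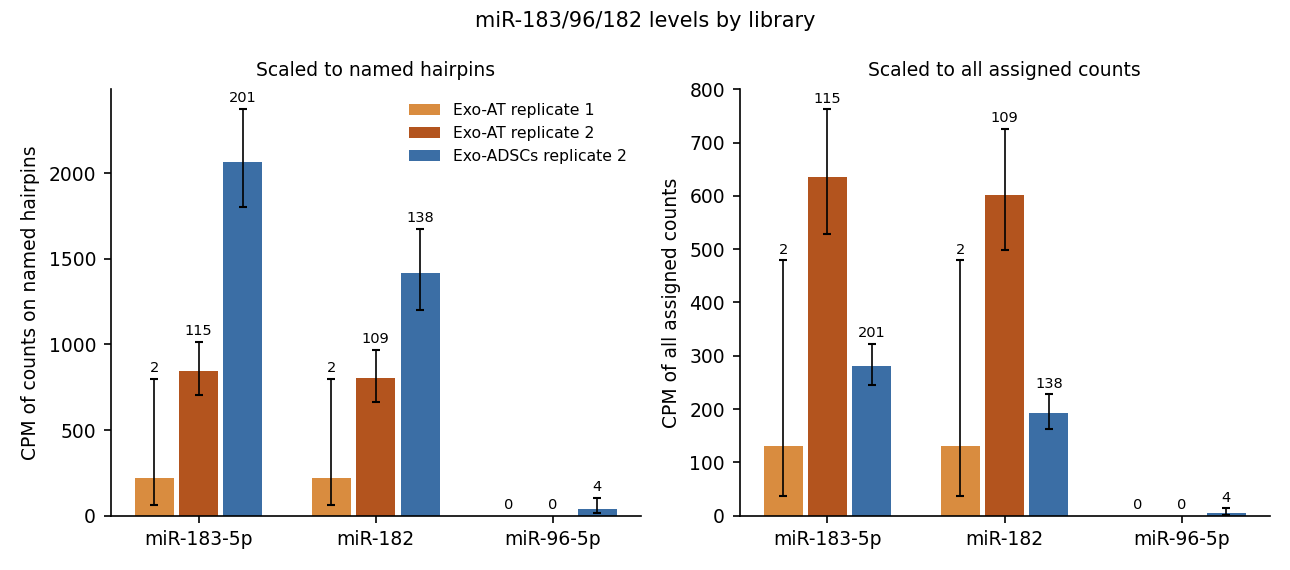
Levels of miR-183-5p, miR-182 and miR-96-5p in Exo-AT replicates 1 and 2 and Exo-ADSCs replicate 2, as CPM of counts on named hairpins (left) and of all assigned counts (right); whiskers are Wilson 95% intervals and the number over each bar is the count. Both Exo-AT libraries are below Exo-ADSCs on the left, while Exo-AT replicate 2 is the highest on the right (635 against 281 for miR-183-5p).

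Across all miRNAs the comparison asked which forms differ between vesicles of the tissue and vesicles of its stem cells. miR-183-5p and miR-182 were the 2 cluster forms that passed the filter on low counts, and both were lower in Exo-AT at an adjusted p under 0.05, with edgeR's quasi-likelihood test and Benjamini-Hochberg adjustment over the 183 forms tested; of all forms tested, 35 (19.1%) were lower by the same rule and 35 (19.1%) higher. miR-96-5p, with 4 counts in all, was not tested. The cluster's forms are too few to be read against that share beyond saying that calls in this direction were common.

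After scaling by TMM, which sets libraries to a common level for most miRNAs, miR-183-5p had levels of 158 and 782 CPM in Exo-AT (mean 470 ± 441, SD, n = 2), against 3132 CPM in the 1 Exo-ADSCs library. The log2 fold change, Exo-AT over Exo-ADSCs, was -2.45 (SE 0.52, adjusted p = 2.35e-05 by edgeR), lower in 2 of 2 Exo-AT libraries. On the same scale miR-182 was at 158 and 741 CPM in Exo-AT (mean 450 ± 412, SD, n = 2), against 2151 CPM in the Exo-ADSCs library. Its log2 fold change was -1.98 (SE 0.57, adjusted p = 0.00244 by edgeR), also lower in 2 of 2 Exo-AT libraries. For both forms the groups do not overlap, as for 37.7% of all forms tested with Exo-AT lower and 39.3% with Exo-AT higher. Their fold changes ranked 31 and 42 from the lowest of 183, and were -2.82 and -2.36 log2 units relative to the median of all tested forms, which was 0.37.

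**Figure D2:**
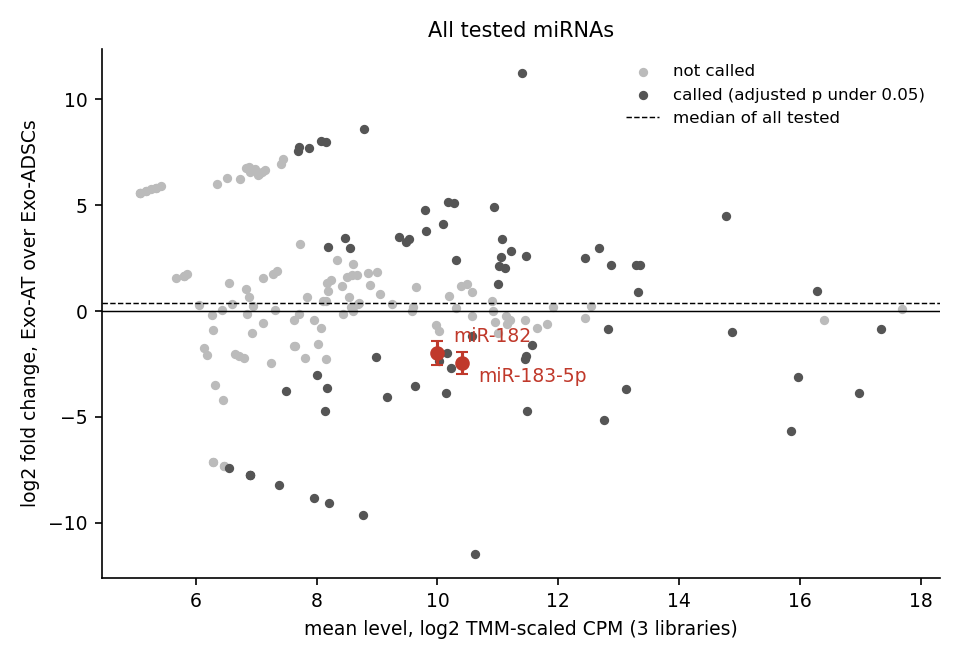
Log2 fold change, Exo-AT over Exo-ADSCs, against mean level (log2 TMM-scaled CPM) for the 183 miRNA forms tested with edgeR. Called forms are in dark grey, and miR-183-5p and miR-182 are marked. Both cluster forms lie among the called forms below 0, at -2.45 and -1.98.

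These calls rest on the scaling and on 1 Exo-ADSCs library. With counts scaled to all assigned counts and predicted hairpins tested too, the direction turned, to 0.49 (adjusted p = 0.866) for miR-183-5p and 0.98 (adjusted p = 0.739) for miR-182 by edgeR, against adjusted p from 6.70e-05 to 0.566 and from 0.00450 to 0.774 over the other alternatives, while the median of all forms moved to 2.91. The fold changes without Exo-AT replicate 1 were -1.999 and -1.53 for miR-183-5p and miR-182, and without Exo-AT replicate 2 they were -4.13 and -3.59, with no test in either case.

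**Figure D3:**
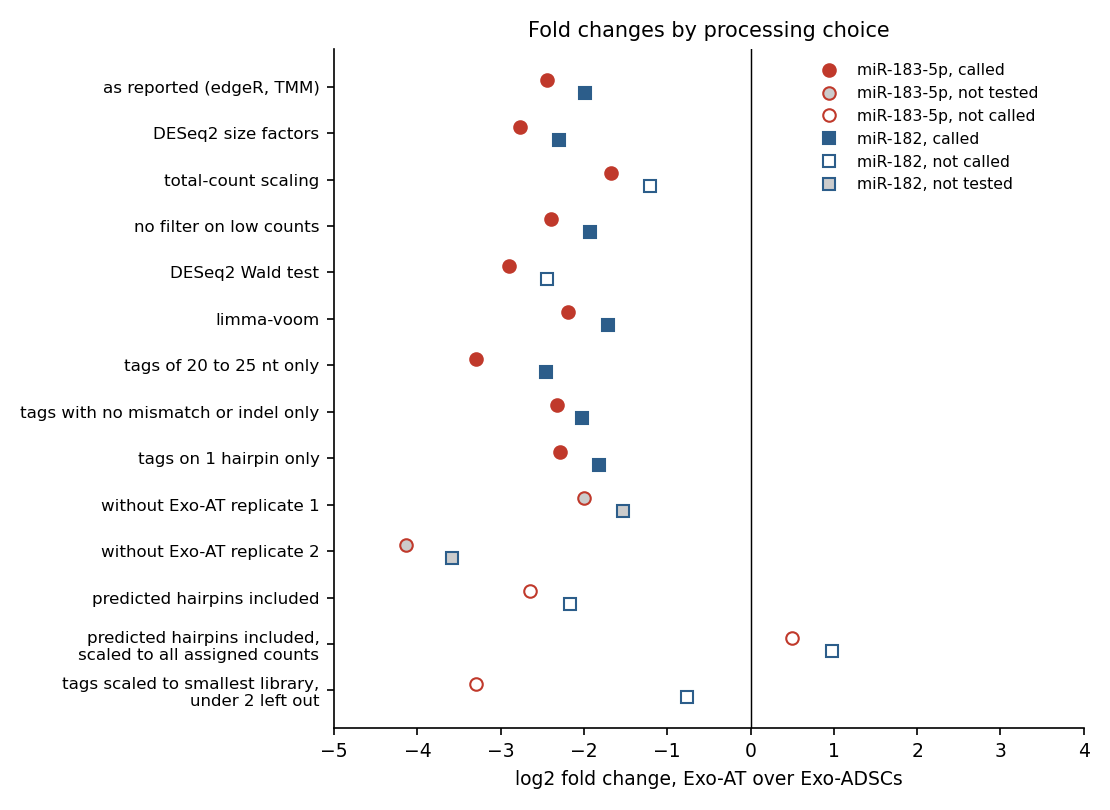
Log2 fold change, Exo-AT over Exo-ADSCs, of miR-183-5p and miR-182 under the main processing and each alternative, with filled points for forms called at an adjusted p under 0.05, open points for forms not called and grey points for values with no test. All alternatives but the scaling to all assigned counts are below 0, and that one gives 0.49 and 0.98.

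Depth alone can remove tags when only tags with at least 2 reads are kept. When each tag was scaled in proportion to the total of Exo-AT replicate 1, miR-183-5p came to 7.72 counts in Exo-AT replicate 2, against 18.9 in the Exo-ADSCs library. Of these tags 0 of 15 stayed at 2 counts or more in Exo-AT replicate 2, against 2 of 24 in the Exo-ADSCs library, which held 7.05 counts. miR-182 came to 7.32 scaled counts in Exo-AT replicate 2, against 13.0 in the Exo-ADSCs library, and in each library 1 tag stayed, of 7 and of 15, with 2.89 and 3.10 counts. Over all named miRNAs 89.2% of the counts of Exo-AT replicate 2 and 92.1% of those of Exo-ADSCs stayed. The observed 2 counts of each form in Exo-AT replicate 1 stand beside 0 and 2.89 in Exo-AT replicate 2 after such scaling. In Exo-ADSCs the values are 7.05 and 3.10. Tags were multiplied by a fixed factor and cut at 2 without random draws, so these are not the counts expected at that depth.

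Within the cluster, miR-182 and miR-183-5p had nearly equal counts in Exo-AT, while miR-183-5p led in Exo-ADSCs. The ratio of their counts was 1.00 (exact 95% interval 0.0725 to 13.8) and 0.948 (0.723 to 1.24) in Exo-AT, against 0.687 (0.549 to 0.857) in the Exo-ADSCs library. The intervals of Exo-AT replicate 2 and Exo-ADSCs overlap. With tags of 20 to 25 nt only, the ratio was 1.33 (0.985 to 1.81) in Exo-AT replicate 2, against 0.699 (0.536 to 0.909) in the Exo-ADSCs library, and these intervals do not overlap. miR-96-5p was a small part of the cluster: its ratio to miR-183-5p was 0 in Exo-AT replicate 2, with an upper bound of 0.0326, against 0.0199 (0.00537 to 0.0517) in the Exo-ADSCs library. All these intervals cover counting error in 1 library only, since reads carry no molecular identifiers.

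The tags themselves show which molecules were counted. Tags chosen to show the starts and ends described below are given as DNA letters, with capitals for bases 2 to 8 of the tag, the seed it would carry. The first 2 below are the annotated miR-183-5p and the form that starts 1 nt later, and the third is cut short at its 3′ end. The next 3 are miR-182 ending at 22 nt, ending at 24 nt, and starting 1 nt before the annotated base, and the last is miR-96-5p.
miR-183-5p, 22 nt: tATGGCACtggtagaattcact
miR-183-5p, 21 nt: aTGGCACTggtagaattcact
miR-183-5p, 18 nt: tATGGCACtggtagaatt
miR-182, 22 nt: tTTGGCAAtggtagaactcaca
miR-182, 24 nt: tTTGGCAAtggtagaactcacacc
miR-182, 23 nt: tTTTGGCAatggtagaactcaca
miR-96-5p, 23 nt: tTTGGCACtagcacatttttgct
The annotated 22 nt miR-183-5p had 2 and 28 counts in Exo-AT, against 47 in the Exo-ADSCs library, and its later-starting form had 0 and 12 counts in Exo-AT, against 28 in the Exo-ADSCs library. The 22 nt miR-182 tag had 0 and 43 counts in Exo-AT, against 14 in the Exo-ADSCs library, whereas the 24 nt tag had 0 and 10 counts in Exo-AT, against 33 in the Exo-ADSCs library. So the leading miR-182 tag of Exo-AT replicate 2 was the shorter and that of Exo-ADSCs the longer of the pair. The miR-96-5p tag, identical to the annotated form over 23 nt, held all 4 counts of that member.

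Most distinct tags were found in only 1 of the 2 deeper libraries. Of 29 distinct miR-183-5p tags in Exo-AT replicate 2 and Exo-ADSCs together, 10 were in both, and they held 81.7% of the form's counts in Exo-AT replicate 2, against 70.1% in the Exo-ADSCs library. Of 17 miR-182 tags, 5 were in both, and they held 92.7% of the form's counts in Exo-AT replicate 2, against 52.2% in the Exo-ADSCs library. No cluster tag was listed on more than 1 named hairpin. The deposited alignment status was R for the tags of miR-183-5p and U for those of miR-182 and miR-96-5p. The sources used here do not define these letters, so whether each tag has a single place in the genome was not tested.

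The 5′ end of miR-183-5p was spread over several positions. The annotated start held 74.8% (66.1 to 81.8) of its counts in Exo-AT replicate 2, against 53.7% (46.8 to 60.5) in the Exo-ADSCs library. The start 1 nt later held 21.7% (15.2 to 30.1), or 25 counts, in Exo-AT replicate 2, against 31.8% (25.8 to 38.6), or 64 counts, in the Exo-ADSCs library. Starts before the annotated base held 3.48%, or 4 counts, in Exo-AT replicate 2, against 11.9% (8.16 to 17.2), or 24 counts, in the Exo-ADSCs library. The annotated start was thus the larger share in both libraries and larger in Exo-AT replicate 2 than in Exo-ADSCs, with intervals that do not overlap. Of the tags with an earlier start, 0 of 4 counts in Exo-AT replicate 2, against 2 of 24 in the Exo-ADSCs library, match the hairpin without a mismatch. Among tags with no mismatch the annotated start held 61.0% in Exo-ADSCs, and starts before it held 0% in Exo-AT replicate 2 and 1.16% in Exo-ADSCs. Both counts of Exo-AT replicate 1 are at the annotated start. Other miRNAs with at least 50 counts also had starts before the annotated base. These held 10% or more in 15 of 80 in Exo-AT replicate 2 and 13 of 48 in Exo-ADSCs.

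The form that starts 1 nt later changes the seed. Its bases 2 to 8 are UGGCACU, which are also bases 3 to 9 of miR-96-5p and lie 1 base beyond its annotated seed. Among other miRNAs with at least 50 counts, the median share that starts 1 nt later was 4.04% over 80 in Exo-AT replicate 2 and 0.687% over 48 in Exo-ADSCs; 15 of 80 and 6 of 48 reached 10% or more. The shares of miR-183-5p, 21.7% and 31.8%, are above 10% in both libraries.

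miR-182 started almost only at its annotated base, with 91.7% of counts in Exo-AT replicate 2, against 97.1% in the Exo-ADSCs library. The Exo-ADSCs share includes 2 counts of a tag with the added bases ACG before the annotated base. The start 1 nt earlier, whose bases 2 to 8 are UUUGGCA, held 8.26%, or 9 counts, in Exo-AT replicate 2, against 1.45%, or 2 counts, in the Exo-ADSCs library. In Exo-AT replicate 1 both of the 2 counts are this earlier form. These are counts of 1 tag, so the differences are not tested here. Among other miRNAs with at least 50 counts, the start 1 nt earlier held 10% or more in 14 of 80 in Exo-AT replicate 2 and 7 of 48 in Exo-ADSCs.

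**Figure D4:**
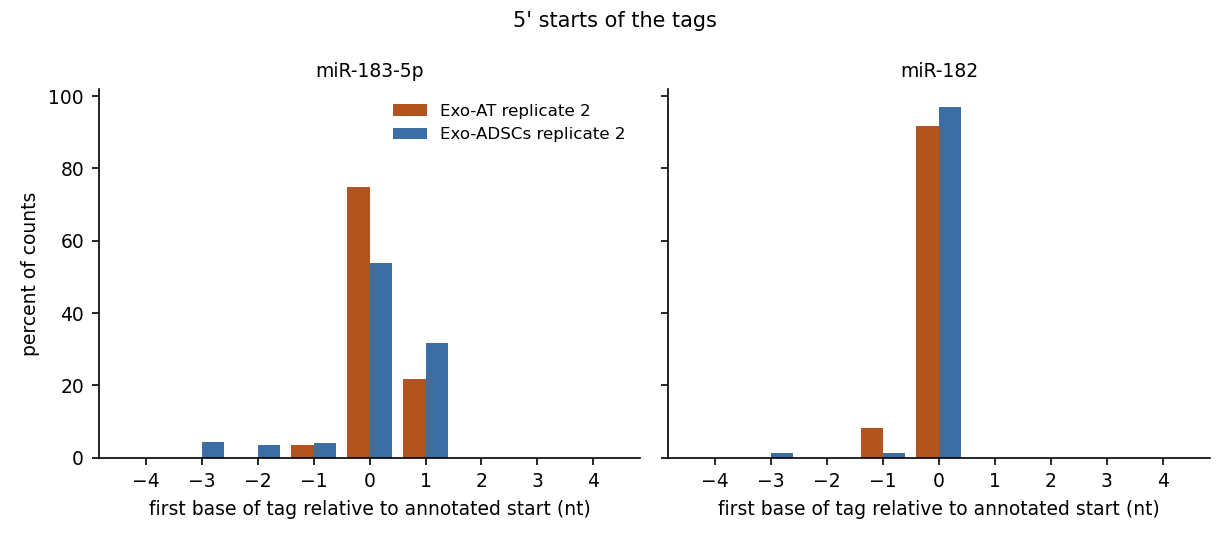
Percent of the counts of miR-183-5p (left) and miR-182 (right) that start at each position relative to the annotated first base (0), in Exo-AT replicate 2 and Exo-ADSCs replicate 2. For miR-183-5p position 1, the start 1 nt later, holds 21.7% in Exo-AT replicate 2 and 31.8% in Exo-ADSCs, while for miR-182 nearly all counts are at 0; 5 miR-183-5p counts of Exo-ADSCs start farther on than the axis shows.

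The 3′ ends varied more. miR-183-5p tags averaged 20.3 nt in Exo-AT replicate 2, against 20.4 nt in the Exo-ADSCs library. Tags of 21 to 23 nt held 49.6% in Exo-AT replicate 2, against 66.2% in the Exo-ADSCs library, and tags under 20 nt held 32.2% in Exo-AT replicate 2, against 28.9% in the Exo-ADSCs library. Counted from the first base of the hairpin, 32.2% ended before base 45 in Exo-AT replicate 2, against 32.3% in the Exo-ADSCs library, and 47.8% ended from base 45 to base 48, the annotated last base, in Exo-AT replicate 2, against 47.3% in the Exo-ADSCs library. Tags with a mismatch to A at their last base held 8.70%, or 10 counts, in Exo-AT replicate 2, against 1.99%, or 4 counts, in the Exo-ADSCs library.

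miR-182 was longer and differed more in its 3′ end. It averaged 22.7 nt in Exo-AT replicate 2, against 22.2 nt in the Exo-ADSCs library, with the most common length at 22 nt in Exo-AT replicate 2 and 24 nt in Exo-ADSCs. Tags of 21 to 23 nt held 50.5% in Exo-AT replicate 2, against 23.2% in the Exo-ADSCs library. Of its tags 10.1% of counts in Exo-AT replicate 2 ended before base 55 of the hairpin, against 28.3% in the Exo-ADSCs library, and 85.3% ended from base 55 to base 58 in Exo-AT replicate 2, against 61.6% in the Exo-ADSCs library. In Exo-ADSCs 2 counts of the tag with the added bases ACG fall outside that range, as its listed end, base 59, counts those bases. Tags under 20 nt held 0 of 109 counts in Exo-AT replicate 2 (Wilson upper bound 3.40%). In the Exo-ADSCs library they held 24.6%, or 34 of 138 counts. Short tags were thus found only in the Exo-ADSCs library of these 2, and no test is given because each group's value comes from 1 library.

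miR-182 also carried a recurrent mismatch at base 24. The change, C24T as counted from 1 at the 5′ end of the tag, was in 25.7% (18.4 to 34.6) of its counts in Exo-AT replicate 2, or 28 counts, against 17.4% (11.98 to 24.6), or 24 counts, in the Exo-ADSCs library. The tag is shown to mark the base, in capitals.
miR-182, C24T: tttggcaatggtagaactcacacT
Of tags that start at the annotated base and are at least 24 nt long, the mismatch was in 28 of 43 counts (65.1%, 50.2 to 77.6) in Exo-AT replicate 2, against 24 of 67 counts (35.8%, 25.4 to 47.8) in the Exo-ADSCs library. The 67 counts of Exo-ADSCs include 2 of the tag with the added bases ACG. The changed base was the last of the tag in 28 counts in Exo-AT replicate 2, against 18 in the Exo-ADSCs library. It was followed by bases that match the hairpin in 0 counts of Exo-AT replicate 2, against 6 of the Exo-ADSCs library. The source of the mismatch was not tested.

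**Figure D5:**
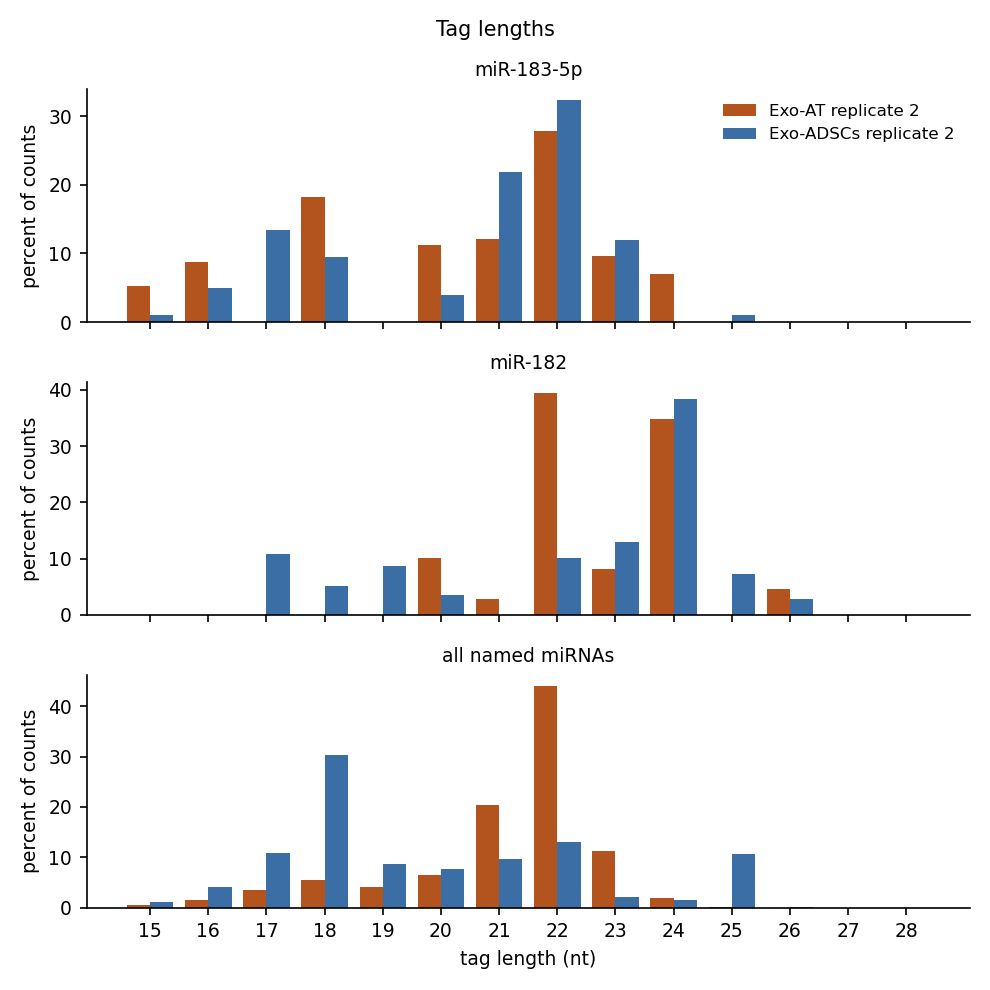
Percent of the counts of miR-183-5p and miR-182 at each tag length (nt) in Exo-AT replicate 2 and Exo-ADSCs replicate 2. miR-183-5p peaks at 22 nt in both libraries, and miR-182 peaks at 22 nt in Exo-AT replicate 2 and at 24 nt in Exo-ADSCs, where shorter tags are also present.

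These lengths lie against libraries of different make-up. All other named miRNAs averaged 21.2 nt in Exo-AT replicate 2, against 19.8 nt in the Exo-ADSCs library, with 75.8% of counts at 21 to 23 nt in Exo-AT replicate 2, against 24.7% in the Exo-ADSCs library, and 15.5% under 20 nt in Exo-AT replicate 2, against 55.2% in the Exo-ADSCs library. Of the others with at least 50 counts, 21 of 94 in Exo-AT replicate 2 and 27 of 57 in Exo-ADSCs had a shorter mean than miR-183-5p, which puts it among the shorter miRNAs of Exo-AT replicate 2 and near the middle of Exo-ADSCs. miR-182 was long in both, since 89 of 94 and 51 of 57 had a shorter mean. With short tags left out of every miRNA, so that only 20 to 25 nt tags were counted, the log2 fold changes were -3.30 for miR-183-5p (adjusted p = 0.0128) and -2.46 for miR-182 (adjusted p = 0.0425 by edgeR), both still lower in Exo-AT. With these tags 29 of all 130 forms tested were called lower and 30 higher.

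Lists of other miRNAs from the settings in which the cluster is known are given beside it. The CPM of single miRNAs in these lists are TMM-scaled. Of epithelial miRNAs, which keep the epithelial state or mark skin, 9 forms had counts and 6 were tested: 2 were higher in Exo-AT, 1 lower and 3 not called, with a median log2 fold change of 1.29 beside 0.37 over all forms tested. Of all forms tested, 19.1% were called higher and 19.1% lower. miR-203a-3p, a skin miRNA that holds back stem cell traits, was lower, at 237 and 190 CPM in Exo-AT, against 2977 CPM in the Exo-ADSCs library (TMM-scaled, log2 fold change -3.87, SE 0.61, adjusted p = 2.08e-08 by edgeR). miR-203b-3p was at 316 and 490 CPM in Exo-AT, against 0 counts in the Exo-ADSCs library (adjusted p = 0.00286 by edgeR). miR-200a-3p and miR-141-3p, which repress the ZEB factors of the epithelial to mesenchymal switch, were not called: miR-200a-3p was at 632 and 320 CPM in Exo-AT, against 140 CPM in the Exo-ADSCs library, and miR-141-3p was at 395 and 306 CPM in Exo-AT, against 171 CPM in the Exo-ADSCs library. With DESeq2's size factors 1 form was higher in place of 2, and with total-count scaling the counts stayed at 2 and 1.

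Sensory, retinal and neuronal miRNAs, the setting in which the cluster is best known, had 10 forms with counts and 4 tested: 2 were higher in Exo-AT, 0 lower and 2 not called, with a median of 2.12. Over all forms tested the median was 0.37, and 19.1% were called in each direction. These 4 forms are too few to be read against that share. miR-9a-5p, a regulator of neural progenitors, was at 3083 and 571 TMM-scaled CPM in Exo-AT, against 46.8 in the Exo-ADSCs library (log2 fold change 5.10, SE 0.90, adjusted p = 5.81e-07 by edgeR). miR-204-5p, abundant in the retinal pigment epithelium, was at 474 and 544 CPM in Exo-AT, against 46.8 CPM in the Exo-ADSCs library (3.42, SE 1.27, adjusted p = 0.0218 by edgeR). Each of them has only 3 counts in Exo-ADSCs, so the ratio of TMM-scaled counts is loosely bounded, at 16.5 (exact 95% interval 5.51 to 81.0) for miR-9a-5p and 11.5 (3.81 to 57.0) for miR-204-5p. miR-375-3p, an islet and neuroendocrine miRNA, was at 553 and 680 CPM in Exo-AT, against 358 CPM in the Exo-ADSCs library, and miR-7a-5p was at 316 and 150 CPM in Exo-AT, against 343 CPM in the Exo-ADSCs library; neither was called. With DESeq2's size factors none of the 4 was called.

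Of other hairpins with a miRNA known to act on FoxO factors, both arms counted, 9 forms had counts and 5 were tested. In Exo-AT 2 were higher, 2 lower and 1 not called, with a median of -0.23. Beside this stand a median of 0.37 and 19.1% called in each direction over all forms tested. The lower forms include miR-21-3p, listed only as the other arm of mir-21, with 0 and 0 counts in Exo-AT, against 84 in the Exo-ADSCs library. miR-486-5p, an erythroid miRNA, was at 36676 and 153190 TMM-scaled CPM in Exo-AT, against 49869 in the Exo-ADSCs library. Its log2 fold change of 0.93 was called (adjusted p = 0.00231 by edgeR), although the groups overlap on this scale. miR-27b-3p, an angiogenic miRNA that restrains adipogenesis, was at 3557 and 2394 CPM in Exo-AT, against 717 CPM in the Exo-ADSCs library (2.02, SE 0.51, adjusted p = 0.000497 by edgeR). miR-21-5p, a growth-promoting miRNA abundant in stromal cells, was lower, at 23476 and 21855 CPM in Exo-AT, against 44306 CPM in the Exo-ADSCs library (-0.97, SE 0.27, adjusted p = 0.00168 by edgeR). miR-27a-3p was at 1976 and 2272 TMM-scaled CPM in Exo-AT, against 2525 in the Exo-ADSCs library, and was not called. Scaled to counts on named hairpins, it was at 2737 and 2455 CPM in Exo-AT, against 1667 in the Exo-ADSCs library. On that scale miR-486-5p was at 50799 and 165570 CPM in Exo-AT, against 32920, and its groups do not overlap. There miR-21-5p was at 32516 and 23621 CPM in Exo-AT, against 29248, and its groups overlap. With total-count scaling miR-21-5p was no longer called (-0.07, adjusted p = 0.908 by edgeR), and with DESeq2's size factors neither miR-486-5p nor miR-27b-3p was called.

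The miRNAs whose levels over the 3 libraries were most like those of miR-183-5p were miR-17-5p, miR-145-5p and miR-31a-5p, at distances of 0.137, 0.377 and 0.449 in log2 TMM-scaled CPM centred over the 3 libraries. For miR-182 they were miR-3556a-3p, miR-30b-5p and miR-501-3p, at 0.164, 0.176 and 0.210. All 6 had 0 counts in Exo-AT replicate 1. The distance between miR-183-5p and miR-182 was 0.411.

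Markers of cell types the samples could hold are given as summed CPM of counts on named hairpins. Summed CPM of mesenchymal stromal miRNAs were 506680 and 451100 in Exo-AT, against 439790 in the Exo-ADSCs library, with 7, 8 and 8 of 8 hairpins found; mir-145 is at 0 in Exo-AT replicate 1. After TMM scaling 6 of their 12 tested forms were lower in Exo-AT and 0 higher, beside 19.1% of all forms in each direction. With DESeq2's size factors 5 were lower and 0 higher, and with total-count scaling 4 were lower and 1, miR-199a-5p, was higher. Erythroid miRNAs summed to 51018 and 166980 CPM in Exo-AT, against 33527 in the Exo-ADSCs library. Most of that is miR-486-5p, at 50799 and 165570 CPM in Exo-AT, against 32920. miR-451-5p was at 219 and 1397 CPM in Exo-AT, against 566, and was not called (-0.01, adjusted p = 0.993 by edgeR). miR-144-3p had 0 and 2 counts in Exo-AT, against 4. Endothelial miRNAs summed to 3832 and 5102 CPM in Exo-AT, against 329 in the Exo-ADSCs library. After TMM scaling 1 of their 2 tested forms was called higher. Leukocyte miRNAs summed to 438 and 941 CPM in Exo-AT, against 154 in the Exo-ADSCs library. After TMM scaling 1 of their 2 tested forms was called higher, and with DESeq2's size factors 0. miR-142-5p was not called (-0.12, adjusted p = 0.952 by edgeR). The liver list is miR-122-5p alone, at 657 and 463 CPM in Exo-AT, against 226 in the Exo-ADSCs library. Its TMM-scaled log2 fold change of 0.37 is the median of all forms tested, and it was not called (adjusted p = 0.771 by edgeR). Muscle miRNAs summed to 0 and 169 CPM in Exo-AT, against 175 in the Exo-ADSCs library. Of the planned muscle list 1 form was tested, miR-133a-3p, with 0 and 21 counts in Exo-AT, against 2. That form was not called (adjusted p = 0.623 by edgeR). In the other direction, miR-206-3p had 0 and 2 counts in Exo-AT, against 12, and miR-206-5p 0 and 0, against 3. The muscle list names mir-1 and so left out miR-1b-3p, a muscle miRNA added here after its values were seen. It had 18 and 177 counts in Exo-AT, against 3 in the Exo-ADSCs library, or 1423 and 1204 TMM-scaled CPM in Exo-AT, against 46.8 in the Exo-ADSCs library, and was called higher (adjusted p = 1.02e-05 by edgeR, higher in 2 of 2 Exo-AT libraries). The epithelial marker list, which lacks mir-203b, summed to 2299 and 1360 CPM in Exo-AT, against 2387 in the Exo-ADSCs library, with 4, 6 and 5 of 7 hairpins found. With mir-203b, as in the epithelial list above, the sums were 2737 and 1889 CPM in Exo-AT, against 2387 in the Exo-ADSCs library, and the groups overlap. The neural list summed to 4598 and 640 CPM in Exo-AT, against 134 in the Exo-ADSCs library. Most of it in Exo-AT is miR-9a-5p, at 4270 and 618 CPM, against 30.9 in the Exo-ADSCs library. miR-124-3p, with 3 and 3 counts in Exo-AT against 7, was at 328 and 22.1 CPM in Exo-AT, against 72.0 in the Exo-ADSCs library. The part of these markers in the levels of the cluster was not tested.

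The authors' deposited table names 45 miRNAs with a higher level in Exo-AT, and 0 of them are members of the cluster. Only higher miRNAs are named there, so a member that is lower in Exo-AT could not be among them. Mir3553, which RefSeq places over Mir183 on the opposite strand, had 0 counts in the 3 libraries.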

How the data were processed

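Small RNA libraries were analysed from tag counts deposited by the authors, whole-number counts of each distinct read sequence per hairpin, per the file headers. Novoalign 2.07.11 and rn6 are named in the submitters' processing notes; how reads were trimmed and hairpins predicted is not given in the sources used here. The table of the whole series holds, per the file headers, normalized reads (a score, factor not stated), also for Exo-ADSCs replicate 1. It also holds a fold (a ratio) that the authors computed. Only its list of names was used. The file of Exo-ADSCs replicate 1 was not used for counts. Sequences came from RefSeq (GRCr8), whose 3 hairpins of the cluster matched the deposited ones; all 3 member names matched.

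Counts on named hairpins were summed to mature forms by position on the hairpin, corrected for the 5 bases counted before it. Shares of counts have Wilson 95% intervals and ratios exact ones, which reflect only counting error. They do not allow for tags of under 2 reads, which are absent. Forms were tested with edgeR 4.0.16 (R 4.3.3; quasi-likelihood, two-sided, TMM, filter at a minimum count of 10 and a minimum total of 15) on 183 forms, adjusted by Benjamini-Hochberg and called at 0.05. Exo-ADSCs is 1 library, so the spread comes from the 2 Exo-AT libraries and the lone library is assumed to vary like them. DESeq2 1.42.0 and limma 3.58.1 were alternatives. The pipeline was tested on simulated counts. Other miRNAs were named by 3 lists (the 4 most abundant members of each) and by smallest distance in level to each tested form. The members and lists were chosen with earlier results of these data known.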

Additional observations from a re-analysis of the deposited data

How the results depend on the processing

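For 2 tested forms, miR-183-5p and miR-182, the call of lower in Exo-AT held with DESeq2's size factors, with no filter and with limma-voom. It also held with tags of 20 to 25 nt, with tags without mismatch and with tags on 1 hairpin. The choice of tags on 1 hairpin leaves out no cluster tag. Calls of lower were common over all forms too. They were 30 of 183 with DESeq2's size factors, 26 of 348 with no filter and 41 of 183 with limma-voom. With tags of 20 to 25 nt they were 29 of 130, without mismatch 30 of 154 and on 1 hairpin 30 of 158. Total-count scaling gave -1.20 for miR-182 (adjusted p = 0.119 by edgeR), and DESeq2's Wald test gave -2.44 (adjusted p = 0.0638), so 1 form was called in each; the cause was not tested. Leaving out 1 Exo-AT library gave -4.13 to -1.999 for miR-183-5p and -3.59 to -1.53 for miR-182, with no test.

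The next 3 alternatives were chosen after seeing the data, and each called 0 forms of the cluster. With the authors' predicted hairpins included, miR-183-5p was at -2.65 (adjusted p = 0.566 by edgeR) and miR-182 at -2.17 (adjusted p = 0.629), and of 401 forms 0 were called and 25 had an unadjusted p under 0.05. Scaled to all assigned counts, the values were 0.49 (adjusted p = 0.866) and 0.98 (adjusted p = 0.739 by edgeR), with 0 called and 53 at an unadjusted p under 0.05. With tags scaled to the smallest library and those under 2 left out, the values were -3.29 (adjusted p = 0.170) and -0.76 (adjusted p = 0.774 by edgeR), with 27 higher and 12 lower of 153. The cause was not tested.

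Calls over all forms were 46 higher and 19 lower with total-count scaling, 23 and 30 with DESeq2's size factors, and 22 and 21 with DESeq2, against 35 and 35. Of descriptive values, 5 of 7 levels moved with the denominator of all assigned counts, 1 of 6 ratios with tags of 20 to 25 nt, 1 of 30 shares without tags under 18 nt, and 4 of 24 with tags without mismatch. No paired analysis was possible because no label links an Exo-AT library to an Exo-ADSCs library. In Exo-AT replicate 1 a form with 0 counts may have a level of up to 328 CPM, or more where its reads are spread over several tags.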
